A study of Mus musculus with 5 samples.

Results

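Complement components and receptors were followed through bleomycin injury of the mouse lung as 8 genes, of 28693 features counted. They were the 3 chains of C1q (*C1qa*, *C1qb* and *C1qc*), the central component *C3*, the alternative-pathway factors *Cfb* and *Cfp*, and the anaphylatoxin receptors *C3ar1* and *C5ar1*. The genes were selected by symbol with their cell-type patterns already known, so that their levels are given as a description without tests. Lung immune cells were isolated from *Ms4a3-CreER;R26-tdT* mice and sequenced in 5 droplet scRNA-seq libraries. The first was made from lungs given PBS (sham), and the other 4 from lungs taken 3, 7, 14 and 28 days after bleomycin was instilled into the trachea, with a single library for each. All 5 groups carried the *Ms4a3-CreER* and *R26-tdT* alleles, in which the monocyte-progenitor gene *Ms4a3* drives a tamoxifen-inducible Cre and Cre switches on the red reporter tdT. Each time point was 1 library, so differences between time points had no replicate check, and every day was compared with the same sham library. The labels give neither the age of the mice nor how many were used for a library.

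Complement is a cascade of plasma proteins that tag particles for uptake, recruit leukocytes and can lyse membranes. C1q, assembled from A, B and C chains, recognizes antibody complexes and dying cells and starts the classical pathway, and unlike most complement proteins it is made mainly by macrophages and dendritic cells. Factor B, encoded by *Cfb*, forms the alternative-pathway convertase with C3b, and properdin, encoded by *Cfp*, stabilizes it. Cleavage of C3 and C5 releases C3a and C5a, which are sensed by the receptors encoded by *C3ar1* and *C5ar1* on myeloid cells.

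In the GENCODE annotation of GRCm38 (mm10) the 3 C1q genes lay side by side on the minus strand of chromosome 4, with no other gene in the 18675 bp that they span. *C1qb* was placed at chr4:136880129-136886187, *C1qc* at chr4:136889804-136893065 and *C1qa* at chr4:136895917-136898803, each with 3 exons. *C3* (chr17:57203970-57228136, 41 exons) and *Cfb* (chr17:34856374-34862518, 18 exons) were both on chromosome 17. *C3ar1* lay at chr6:122847138-122856161, *C5ar1* at chr7:16246743-16259540 and *Cfp* at chrX:20925454-20931555. All 8 were protein coding and on the minus strand. *Cfb* was overlapped by the gene model Gm20547, which was also counted, so that reads of this locus may not all have been counted for *Cfb*. Upstream sequence from RefSeq (GRCm38.p6) was at hand for 6 of the 8 genes, all but *C1qa* and *Cfb*. The 250 bases before the RefSeq start sites of *C1qb*, *C3ar1* and *C3* are shown, since *C1qb* and *C3ar1* shared their highest cell type and *C3* had another, as described below. They are written 5′ to 3′ on the strand of the gene, and capitals mark matches on either strand to the ETS core AGGAAG, the Maf half-site TGCTGA and the C/EBP motif TTGCNNAA.
C1qb, chr4:136886201-136886450: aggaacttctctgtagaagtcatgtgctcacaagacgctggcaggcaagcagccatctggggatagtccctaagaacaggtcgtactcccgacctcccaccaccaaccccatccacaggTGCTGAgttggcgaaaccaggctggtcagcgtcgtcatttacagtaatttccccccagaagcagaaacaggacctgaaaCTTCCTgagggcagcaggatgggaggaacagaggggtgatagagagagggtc
C3ar1, chr6:122856158-122856407: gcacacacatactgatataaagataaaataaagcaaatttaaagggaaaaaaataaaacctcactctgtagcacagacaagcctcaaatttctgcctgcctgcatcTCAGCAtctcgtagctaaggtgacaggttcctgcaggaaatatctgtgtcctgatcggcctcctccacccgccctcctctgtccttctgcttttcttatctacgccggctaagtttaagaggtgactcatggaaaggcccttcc
C3, chr17:57228137-57228386: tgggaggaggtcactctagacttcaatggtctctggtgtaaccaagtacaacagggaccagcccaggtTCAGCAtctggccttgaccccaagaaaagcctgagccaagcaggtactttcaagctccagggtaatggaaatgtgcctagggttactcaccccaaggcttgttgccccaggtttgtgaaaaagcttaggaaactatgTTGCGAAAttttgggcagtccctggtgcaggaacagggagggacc
The *C1qb* window held an ETS match at -52 and a Maf match at -131 from the start site. The *C3ar1* window held a Maf match at -144, and the *C3* window a Maf match at -182 and the only C/EBP match among the 6 genes, at -45. The *C1qc* window held ETS matches at -194 and -157, the *C5ar1* window ETS matches at -189, -71 and -67 and a Maf match at -17, and the *Cfp* window none. Of 32851 upstream windows of the same length, 29.5% held the ETS core, 16.1% the Maf half-site, 9.56% the C/EBP motif and 2.98% the interferon-stimulated response element (ISRE), which matched in none of the 6. These matches describe letters and were not tested as binding sites.

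The libraries held between 89769386 and 167506186 UMIs, and 44772 of 52800 barcodes were kept, those with 300 to 8000 genes, a total of 800 to 60000 UMIs and less than 15% of them mitochondrial. Cells were gated one by one on marker lists that held none of the 8 genes, which placed 34703 cells in single types and 1598 in mixed types and left 8471 ungated. Types are written "-like" because they were named by these markers. Alveolar macrophage (AM)-like cells numbered 5821 in sham and 693, 1954, 1836 and 4004 at days 3, 7, 14 and 28. Interstitial macrophage (IM)-like cells numbered 39 in sham and then 593, 1286, 825 and 619. Classical monocyte-like cells peaked at day 3 with 987 and were only 32 at day 14 and 5 at day 28. At day 14 their gate marker *Ly6c2* was low in T cell-like cells. Those with no C1q UMI held 4 UMIs of it in 733 cells, against 466 in 448 cells in sham and 567 in 853 cells at day 28. The day 14 count and levels of classical monocyte-like cells may thus not compare with other libraries. Each gate had at least 2 of its own markers and none of another list among its 10 leading genes, and those of classical monocyte-like cells also included the granule genes *Elane*, *Prtn3* and *Mpo*. Although immune cells were isolated, 30 to 69 fibroblast-like cells were gated per library. No barcode of day 7 had fewer than 4624 UMIs, whereas the other libraries reached down to 500 to 502, and any pair of libraries shared 22 to 41 barcodes. A level is stated in CPM, for which the UMIs of all cells of one type in one library were added up and each gene was expressed per 1e6 of them. Brackets hold exact Poisson 95% intervals, which cover counting error only. A type needed at least 20 cells in a library.

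The C1q chains were highest in IM-like cells in all 5 libraries, although they were not used to gate them. *C1qa* in IM-like cells stood at 4707 CPM in sham (4520 to 4900, 39 cells), 2807 CPM at day 3 (2771 to 2844) and again 4467 CPM by day 7 (4439 to 4495). The later libraries held 5231 CPM (5201 to 5262, day 14) and 5551 CPM (5509 to 5592, day 28). *C1qb* in the same cells was 3917, 2946, 4796, 4422 and 4572 CPM in sham and at days 3, 7, 14 and 28. *C1qc* was 2869, 1876, 2756, 2891 and 3357 CPM. All 3 chains were therefore lowest at day 3, and none was 2-fold from sham on any day. The day 3 level was 0.596 of sham for *C1qa* (95% interval 0.572 to 0.622), 0.752 for *C1qb* (0.718 to 0.788) and 0.654 for *C1qc* (0.620 to 0.691). The low day 3 level held for gated cells only. In cells named by cluster, *C1qa* of IM-like cells was 1252 CPM in sham (111 cells) and 4445, 2705, 5796 and 6047 CPM on the 4 days, and only 38 of the sham cells and 48 of the 96 cells of day 3 were the same in both. Per cell, IM-like cells held on average 61.1 *C1qa* UMIs in sham and 38.2, 75.3, 136 and 111 on the 4 days, while their median depth was 9347 UMIs in sham and 25206 at day 14.

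Among the gated single types, the type next to IM-like cells changed between libraries, and its level never came near. For *C1qa* it was the cDC2-like cells in sham and at day 28, the classical monocyte-like cells at day 3, the endothelial-like cells at day 7 and the pDC-like cells at day 14. IM-like cells exceeded it by 6.07-fold at day 3 and by 9.73- to 22.0-fold in the other libraries. The margin was 4.54- to 16.9-fold for *C1qb* and 5.77- to 25.1-fold for *C1qc*, again narrowest at day 3 against classical monocyte-like cells, and the counting intervals did not overlap in any library. In order of median *C1qa* level, classical monocyte-like cells followed (63.9 to 463 CPM over 4 libraries), and then cDC2-like cells (96.7 to 293 CPM), and these ranges overlapped. Further down, each of the 13 remaining types overlapped its neighbours in this order, so that the order is not read. The margins above hold for the gate only. In cells named by cluster, *C1qb* in sham was 1212 CPM in IM-like and 677 CPM in cDC2-like cells. At day 7 it was 2969 CPM in IM-like and 1499 CPM in classical monocyte-like cells. Mixed and ungated cells were not ranked, and their *C1qa* reached 2890 CPM (IM/classical monocyte mixed) and 1339 CPM (ungated).

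Apart from IM-like, classical monocyte-like and cDC2-like cells, the C1q chains were near 0 in sham, and they were found in every type after bleomycin. The sham level of classical monocyte-like cells (*C1qa* 107 CPM) lay in few cells, since 124 of 129 thinned to 2000 UMIs had no C1q UMI and 2 had at least 10, and in cells named by cluster it was 12.3 CPM. *C1qa* in AM-like cells was 2.50 CPM in sham (2.20 to 2.82) and 39.5, 132, 123 and 163 CPM on the 4 days after injury. T cell-like cells, which should not make C1q, held 0.368 CPM in sham (1 UMI) and 29.8, 92.6, 108 and 74.3 CPM after it. In both types all 4 bleomycin libraries were thus above sham. Over the same libraries the total *C1qa* count was 3987 UMIs in sham against 48825, 148018, 176978 and 151868 UMIs in the bleomycin libraries in order of time. The share of cells with a *C1qa* UMI was also compared. When each cell was thinned to 2000 UMIs, it was 0.177%, 3.38%, 7.52%, 13.3% and 12.1% of AM-like cells in sham and at days 3, 7, 14 and 28, and 0%, 2.78%, 8.09%, 18.6% and 13.2% of T cell-like cells. Without thinning the day 28 shares were 41.9% of AM-like cells at a median of 18476.5 UMIs and 25.1% of T cell-like cells at a median of 3900.5 UMIs. From day 7 the thinned share of AM-like cells was thus below that of T cell-like cells while their CPM was higher, and no order was read between them. The part of free RNA in the AM-like level was not tested. In cells named by cluster the AM-like level was 231, 1055 and 898 CPM at days 7, 14 and 28 (154, 516 and 889 CPM with 1 fewer gene kept out of the clustering), and the cause of this gap to the gated cells was not tested.

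Counted over all types and days, 204 levels of the 8 genes could be compared with sham because at least 1 of the 2 libraries reached 50 CPM. Of these, 109 were higher by 2-fold or more and 19 lower by as much, against 7.38% and 5.45% of all genes compared in the same way. With Scrublet doublets removed, 99 passed 2-fold, of which 95 were among these 128. Most of these were C1q chains outside the IM gate, where 95 of 107 were higher and 6 lower (7.54% and 4.92% of all genes in these types). These 107 were not separate observations, since the 3 chains ran closely together and every day shared the same sham library. They include T cell-like cells, of which only 0.246% held at least 10 C1q UMIs at day 14 after thinning. The *C1qa* count of the whole library was 3987 UMIs in sham and 176978 at day 14. The part of free RNA in these counts was not tested. In IM-like cells, 0 of 12 C1q comparisons passed 2-fold in either direction, beside 5.64% of all genes higher and 11.0% lower. The 6 lower values were those of the 3 chains in cDC2-like cells at day 7 and day 14, for instance *C1qa* at 135 and 96.7 CPM against 293 in sham (49 cells). In cells named by cluster instead of by gate, all 6 were higher than sham, but with 1 fewer gene kept out of the clustering they were again lower (*C1qa* at 197 and 255 CPM against 313), so no direction is drawn for them. The other 5 genes gave 85 comparisons, of which 14 were higher and 13 lower.

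**Figure D1:**
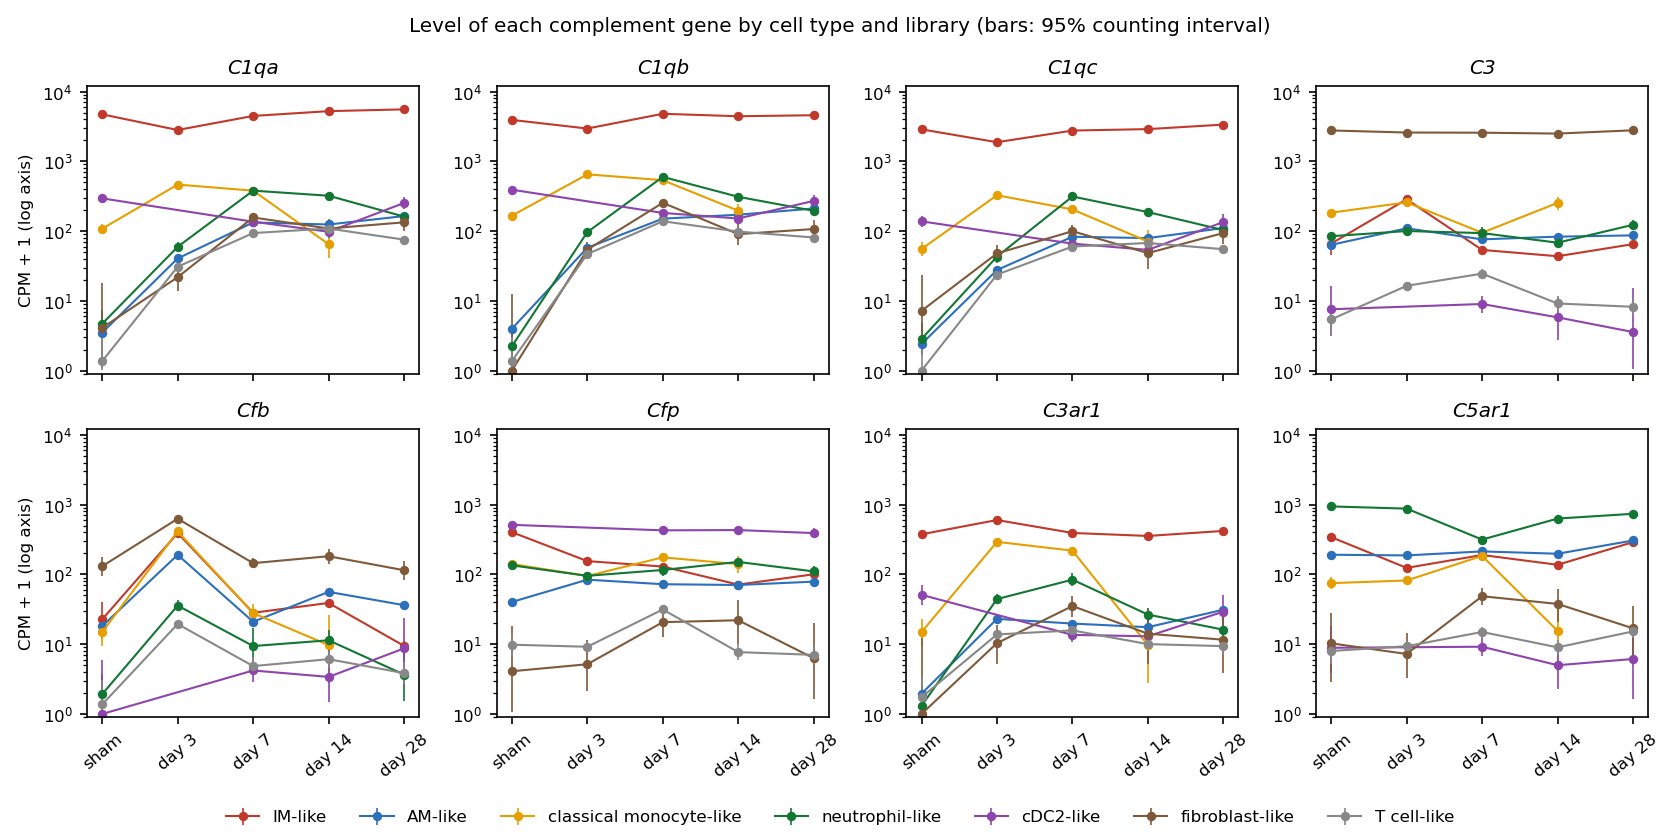
Level of each of the 8 genes (CPM + 1, log axis) in 7 cell types over the 5 libraries, with 1 panel per gene and bars for the 95% counting interval. The C1q chains and *C3ar1* are highest in IM-like cells throughout, *C5ar1* in neutrophil-like cells, and the C1q chains of the other types drawn are higher at day 7 than in sham, except in cDC2-like cells.

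Within the IM gate at day 3, C1q was uneven between cells. After thinning to 2000 UMIs, 83.8% of sham IM-like cells (31 of 37, exact binomial 95% interval 68.0 to 93.8) held at least 10 C1q UMIs. At day 3 this was 44.2% (40.1 to 48.4), and afterwards 82.7%, 88.1% and 91.9%. Cells with no C1q UMI made up 30.6% of IM-like cells at day 3, against 2.70% in sham and 3.58%, 0.735% and 0% on the later days. Within this gate, the low day 3 level thus went with a group of cells in which C1q was not detected at this depth. Only 48 of the 593 cells gated as IM-like at day 3 were IM-like by cluster, so the name of this group is uncertain. Among AM-like cells at least 10 C1q UMIs were rare, at 0.0353% to 1.98% over the libraries, and among T cell-like cells the share was 0% to 1.44%. Cells gated as AM/IM mixed stood between, with 39.6%, 43.8% and 59.7% at days 7, 14 and 28.

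**Figure D2:**
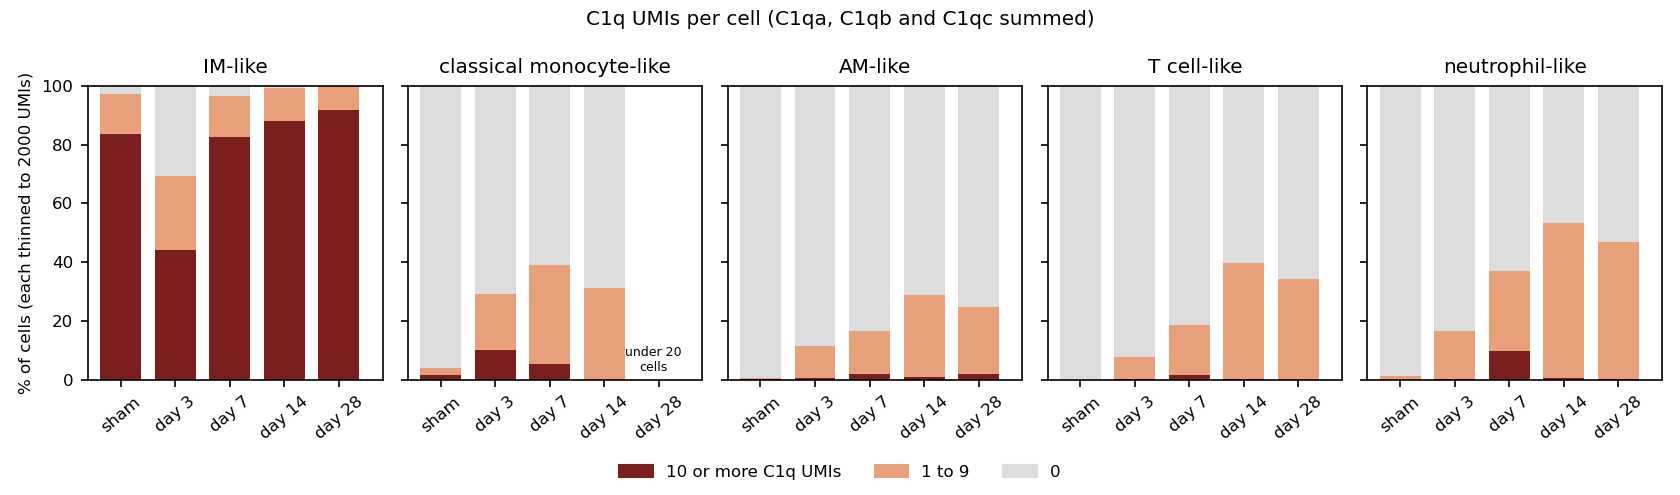
Share of cells (%) with at least 10, 1 to 9 or 0 C1q UMIs after thinning each cell to 2000 UMIs, stacked by library for IM-like, classical monocyte-like, AM-like, T cell-like and neutrophil-like cells. IM-like cells with no C1q UMI reach 30.6% at day 3 and stay under 4% in the other 4 libraries.

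The other complement genes differed between these groups of day 3 IM-like cells, taken from the same library. *Cfp* was 88.6 CPM in the 172 cells with no C1q UMI, 116 in the 142 cells with 1 to 9 and 210 in the 249 cells with at least 10. *C5ar1* followed in the same order, at 94.9, 111 and 146 CPM. *C3ar1* (623, 632 and 577 CPM) hardly moved, while *Cfb* was 442, 403 and 358 CPM and *C3* was 309, 331 and 250 CPM. *Cfp* and *C5ar1* were thus highest, and *Cfb* and *C3* lowest, in the cells with the most C1q. The monocyte gene *Ly6c2* was 1743, 1763 and 1373 CPM in these 3 groups and *Gpnmb*, a gene of lipid-laden and scar-associated macrophages, 2779, 2734 and 1371 CPM. No *Ly6c2* UMI was found in the 31 sham IM-like cells with at least 10 C1q UMIs. Sham classical monocyte-like cells without C1q UMIs held 964 CPM. T cell-like cells without C1q UMIs also held more at day 3, at 852 CPM against 172 in sham. IM-like cells of day 3 and sham thus differed in a monocyte gene. The part of this in their day 3 ratios was not tested. Split by *Mmp12* and *Gpnmb* instead, the 202 day 3 IM-like cells with at least 5 UMIs of the pair held 1408 CPM of *C1qa*, against 5470 CPM in the 159 cells with none. At day 28 the same split gave 5206 and 5695 CPM, a much smaller gap.

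In AM-like cells of day 28, C1q counts went with other genes. The 78 cells with at least 10 C1q UMIs held 195 CPM of *C3ar1*, against 74.6 CPM in the 900 cells with 1 to 9 and 10.8 CPM in the 2966 cells with none. *Cfb* ran the other way, at 13.5, 29.9 and 37.7 CPM, and *C5ar1* did too, at 231, 283 and 316 CPM. The AM gate marker *Siglecf* was lowest in the first group, at 53.9 CPM against 76.2 and 110. *Mmp12* was 2342, 1362 and 455 CPM in the same order, and the RFP reporter 612, 511 and 391 CPM. AM-like cells with the most C1q at day 28 therefore also had the most *C3ar1* and reporter RNA, and the part of mixed droplets in this was not tested. Split by *Mmp12* and *Gpnmb*, AM-like cells with at least 5 UMIs of the pair held 227, 319 and 498 CPM of *C1qa* at days 7, 14 and 28, against 81.5, 93.2 and 54.8 CPM in those with none, the opposite order to IM-like cells of the same days. In sham these groups of AM-like cells held 2.21 and 4.73 CPM.

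Much of the C1q RNA of a library lay in few cells. IM-like cells were 0.422% of the sham cells and held 59.8% of the *C1qa* UMIs. At days 3, 7, 14 and 28 they were 7.41%, 13.5%, 10.6% and 6.02% of the cells and held 46.3%, 65.4%, 63.4% and 45.3%. AM/IM mixed cells added 19.7% at day 28 and IM/classical monocyte mixed cells 23.6% at day 3, and ungated cells held 13.01% to 24.6%. Of the C1q UMIs of IM-like cells, *C1qa* made up 41.0%, 36.8%, 37.2%, 41.7% and 41.2% from sham to day 28, so that its share moved little (3′ UMIs, not scaled to length).

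*C3* is the component on which all pathways converge. Among types with at least 20 cells in a library, it was highest in fibroblast-like cells, and at day 7 in mesothelial-like cells. The fibroblast-like level was 2765 CPM in sham (2586 to 2952, 30 cells) and 2583, 2568, 2495 and 2781 CPM on the 4 days. It was steady, with the sham interval overlapping that of all 4 bleomycin libraries. The 59 mesothelial-like cells of day 7 held 8143 CPM (7974 to 8315), and no other library had 20 such cells. Sham and days 3, 14 and 28 had 7, 10, 6 and 14 of them, with 4.52%, 2.38%, 9.93% and 9.95% of the *C3* UMIs. The 30, 59, 33 and 47 fibroblast-like cells there held 10.04%, 13.8%, 10.6% and 8.19%. In these libraries the 20-cell limit alone kept mesothelial-like cells out of the ranking. T cell-like cells held 4.42, 15.4, 23.5, 8.16 and 7.21 CPM from sham to day 28. Among leukocytes *C3* was highest in classical monocyte-like cells in sham (182 CPM), with 257, 93.5 and 253 CPM at days 3, 7 and 14. IM-like cells stood at 65.2 CPM in sham (33 UMIs) and at 284, 52.7, 42.6 and 63.9 CPM on the 4 days. The day 3 value was 4.36-fold that of sham (3.10 to 6.35), but in cells named by cluster it was 105 against 61.0 CPM. AM-like cells varied less, at 62.4, 108, 75.02, 82.2 and 85.7 CPM.

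*Cfb* had its highest level at day 3 in every type that had at least 20 cells in that library. Fibroblast-like cells held 130 CPM in sham and 628, 144, 181 and 114 CPM in time order afterwards. AM-like cells had 17.2 CPM in sham, 190 CPM at day 3 and later 19.98, 55.3 and 35.3 CPM. IM-like cells had 21.7 CPM in sham (11 UMIs), 391 CPM at day 3 and later 27.2, 38.0 and 8.46 CPM. Each of the 3 types thus showed a single high library with no overlap of its interval with the other 4. The day 3 ratio to sham was 4.83 in fibroblast-like cells (3.53 to 6.77), 11.1 in AM-like cells (10.4 to 11.8), 18.0 in IM-like cells (10.0 to 36.1) and 29.6 in classical monocyte-like cells (18.9 to 49.2). Classical monocyte-like cells held 412 CPM at day 3 against 13.9 in sham (19 UMIs). The IM-like cells of day 3 and sham also differed in *Ly6c2*, as given above. In cells named by cluster, IM-like *Cfb* was 8.07 CPM in sham and 220 CPM at day 3. T cell-like cells held 18.5 CPM at day 3 and 0.368 to 5.10 CPM in the other libraries. By thinned counts, 43.0% of day 3 IM-like cells and 21.7% of day 3 AM-like cells had a *Cfb* UMI, against 1.74% of T cell-like cells.

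Interferon-stimulated genes had the same high library as *Cfb*. All 6 listed genes of this kind (*Ifit1*, *Ifit3*, *Irf7*, *Isg15*, *Oas3* and *Rsad2*) were highest at day 3 in AM-like, IM-like, classical monocyte-like, fibroblast-like and T cell-like cells. Their summed level in AM-like cells was 11.1 CPM in sham, 1284 CPM at day 3 and then 66.4, 54.2 and 24.5 CPM. In IM-like cells it was 39.5, 2945, 246, 226 and 54.2 CPM. Because day 3 was 1 library, day of injury and library cannot be told apart, and the part of interferon in the *Cfb* level was not tested.

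The cells that held *Cfb* and *C3* RNA differed between libraries. AM-like cells were 63.0%, 8.66%, 20.6% and 38.9% of the cells in sham and at days 3, 7 and 28. They held 93.5% of all *Cfb* UMIs in sham and 8.84% at day 3, when the library had 23930 of them against 1925 in sham, and 76.6% at day 28. Levels within types differed as well, as given above, and the parts of composition and level were not separated. For *C3*, AM-like cells held 73.6% in sham, 6.72% at day 3, 14.4% at day 7 and 55.4% at day 28. At day 7 the 59 mesothelial-like cells alone held 46.1% of the *C3* UMIs. Fibroblast-like cells held 8.19% to 13.8% throughout, although they numbered at most 69.

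**Figure D3:**
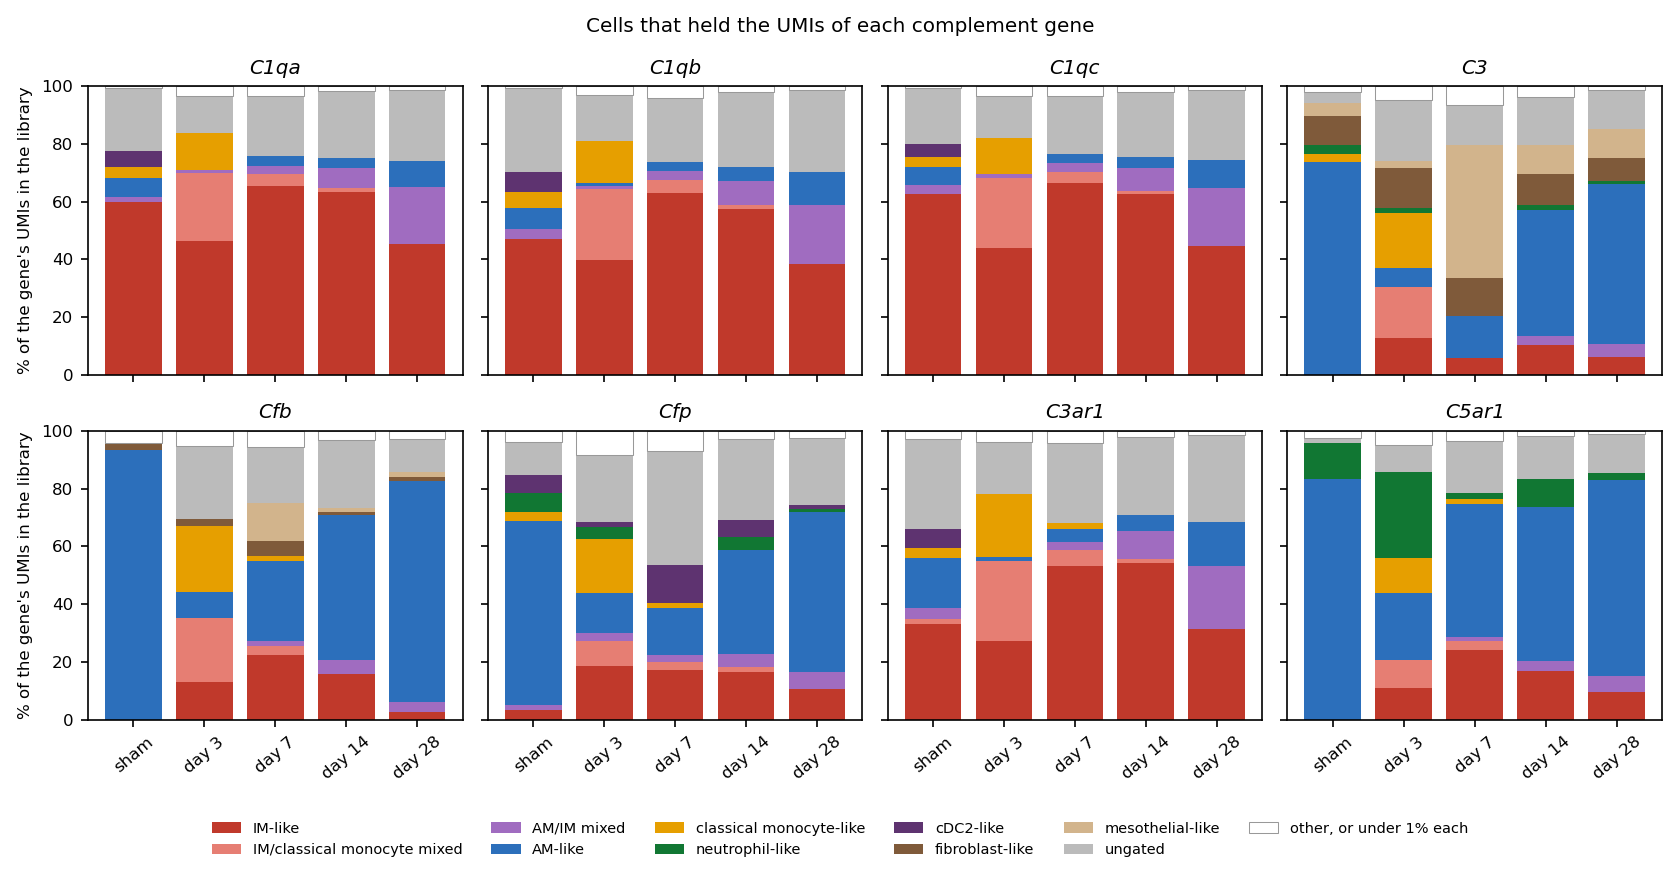
Share of each gene's UMIs (%) that lay in each cell type, by library. AM-like cells hold most *C3*, *Cfb* and *C5ar1* UMIs in sham (73.6%, 93.5% and 83.2%) and a small part at day 3 (6.72%, 8.84% and 23.1%), while IM-like cells hold 45.3% to 65.4% of *C1qa* UMIs.

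*Cfp* was highest in cDC2-like cells, a type of antigen-presenting dendritic cell, in the 4 libraries that had at least 20 of them. The cDC2-like level was 513 CPM in sham (463 to 566) and 428, 432 and 391 CPM at days 7, 14 and 28, and day 3 had only 9 such cells. IM-like cells held 403 CPM in sham (349 to 462) and 154, 129, 70.5 and 99.5 CPM after bleomycin. The bleomycin libraries were all below sham, at 0.383 (0.330 to 0.446), 0.320, 0.175 and 0.247 of its level. The day 3 direction depended on how IM-like cells were named. In cells named by cluster, IM-like cells held 298 CPM in sham (111 cells) and 811 at day 3 (96 cells), with 134, 132 and 243 CPM at days 7, 14 and 28. Only 48 of the 593 IM-like cells gated at day 3 were IM-like by cluster. AM-like cells were at 39.3 CPM in sham and at 83.1, 71.4, 69.6 and 77.8 CPM afterwards, 2.12-fold sham at day 3 (1.97 to 2.27) and 1.77- to 1.98-fold later. Neutrophil-like cells kept 94.6 to 150 CPM. T cell-like cells held 6.04 to 8.84 CPM in 4 libraries and 30.5 CPM at day 7.

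The receptor for C3a shared its leading type with C1q. *C3ar1* in IM-like cells was 375 CPM in sham (324 to 433), 601 CPM at day 3 (585 to 618) and 392.2, 355 and 419 CPM later. IM-like cells were highest in all 5 libraries, by 1.80-fold over the next type at day 7 and by 13.7-fold at day 28. Unlike C1q, *C3ar1* was not lower at day 3, when the thinned share of IM-like cells with a UMI was 65.5% against 64.9% in sham. Classical monocyte-like cells held 13.9 CPM in sham (19 UMIs) and 292, 218 and 8.71 CPM on the 3 days with at least 20 such cells, the last from 3 UMIs. They exceeded sham 20.99-fold at day 3 (13.4 to 34.9) and 15.7-fold at day 7 (9.89 to 26.3). By cluster these cells were even above IM-like cells at day 3, at 388.5 against 264 CPM. Their *C1qa* was also higher than sham on both days, at 463 and 378 CPM against 107 in gated cells and at 942 and 1193 CPM against 12.3 in cells named by cluster. AM-like cells held 0.954 CPM in sham and 16.5 to 30.2 CPM afterwards, and T cell-like cells 0.736 and 8.39 to 14.8 CPM. In thinned cells *C3ar1* was found in 3.85% of AM-like and 1.08% of T cell-like cells at day 28 (intervals 3.27 to 4.50 and 0.592 to 1.81).

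The receptor for C5a had another pattern and was highest in neutrophil-like cells in all 5 libraries. *C5ar1* in these cells was 943 CPM in sham (910 to 977) and 877, 315, 631 and 739 CPM in the bleomycin libraries in time order. The day 7 library was lowest, and its 122 neutrophil-like cells also held 378 CPM of *C1qa*, against 3.69 CPM in sham, and had a median of 7227 UMIs against 2170 to 3394 in the other libraries. The part of these values in the lower *C5ar1* was not tested. AM-like cells came second by their median, at 191, 186, 213, 197 and 306 CPM, with the highest level at day 28 (1.60-fold sham, 1.57 to 1.63). IM-like cells came after them, at 342, 123, 189, 136 and 289 CPM, and overlapped the range of AM-like cells. The IM-like level at day 3 was 0.360 of sham (0.306 to 0.426) and at day 14 0.3996 of sham. By cluster both were higher than sham, with 132 CPM in sham, 300 at day 3 and 145 at day 14, so no direction is drawn for *C5ar1* in IM-like cells. Classical monocyte-like cells were at 74.0, 81.0, 183 and 14.5 CPM in sham and at days 3, 7 and 14, and the day 7 value was 2.48-fold sham (1.97 to 3.14), a direction that turned by cluster as well. T cell-like cells held 7.00 to 14.3 CPM. After thinning, a *C5ar1* UMI was found in 81.2% of sham neutrophil-like cells, 32.8% of sham AM-like cells and 0.446% of sham T cell-like cells.

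Type by type, the number of the 8 genes past 2-fold was as follows. In AM-like cells at day 3, 3 of 5 genes compared were higher (*C1qb*, *Cfb* and *Cfp*) and 0 lower, beside 5.36% and 2.67% of all genes. At days 7, 14 and 28 the higher genes were 3 of 6, 4 of 7 and 3 of 6, beside 2.53%, 3.60% and 3.41%, and each time they included the 3 C1q chains. No gene was lower (2.02%, 2.79% and 4.63% of all genes). In IM-like cells at day 3, 2 of 8 were higher (*C3* and *Cfb*) and 2 lower (*Cfp* and *C5ar1*), beside 10.6% and 9.86%. On the later days 0 of 7 were higher, beside 2.61%, 4.40% and 4.41%, while *Cfp* was lower each time and *C5ar1* also at day 14, beside 8.31%, 10.9% and 15% of all genes. In classical monocyte-like cells 5 of 8 were higher at day 3 and 5 of 7 at day 7 (13.7% and 7.96% of all genes), the C1q chains and *C3ar1* on both days, and none was lower (5.47% and 5.23%). At day 14, with 32 cells, 0 of 6 were higher and 1 lower (*C5ar1*), beside 8.87% and 4.56%. The limit given above for the day 14 gate of this type, its low *Ly6c2*, holds for these counts. Some of the genes counted changed direction in cells named by cluster, as given above. In IM-like cells these were *Cfp* at day 3 and *C5ar1* at days 3 and 14. In classical monocyte-like cells it was *C5ar1* at day 7.

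The genes whose levels ran most like each of the 8 were sought over 69 sums of a type and library, from 16 types, among 5621 genes. Pearson's r was taken on log2(CPM + 10) as a description, since sums of 1 library share its depth and free RNA. The C1q chains were nearest to each other (r = 0.982 to 0.985), and *C3ar1* was next for all 3 (0.866, 0.882 and 0.896). For *C3ar1* itself *Ms4a7*, a gate marker of IM-like cells, stood between *C1qc* and *C1qb* at 0.885. *C3* was nearest to the classical-pathway component gene *C4b* (0.876), followed by *Igfbp6* (0.857) and *Creb3l1* (0.856). *Cfb* was nearest to *C3* (0.766) and to *C1ra* (0.749), which encodes the protease C1r, followed by *Pnp* (0.734). *Cfp* ran with *Milr1* (0.791), *Alox5ap* (0.787) and *Ccr1* (0.756). *C5ar1* ran with *Msrb1* (0.896), *Clec4d* (0.887) and *C5ar2* (0.866), the gene of the second C5a receptor.

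The rest of the pathway was read from a list of 47 further complement genes, 46 of which were counted, in comparisons between types within libraries. These were tested with edgeR's quasi-likelihood test with the library as a block, on 5 libraries with 4 residual degrees of freedom, with Benjamini–Hochberg adjustment across every gene in the fit. Values are log2 fold changes ± an approximate SE, taken as the absolute fold change over the square root of the test's F statistic. This SE can be too small where a type holds few UMIs of a gene. Between IM-like and AM-like cells 25 genes were tested, 10 were higher in IM-like cells, 3 were lower and 12 did not pass. Over all genes tested 19.7% were higher and 19.9% lower, and the median log2 fold change was 0.85 for the list and 0.01 for all genes. The complement receptor gene *Vsig4*, which marks resident macrophages, was 63.2 CPM in sham IM-like cells and 14.6, 3.74, 1.12 and 14.1 CPM at days 3 to 28. AM-like cells held 26 *Vsig4* UMIs in all, and the difference was 7.04 ± 1.01 (adjusted p = 0.0014). *Itgam*, the alpha chain of the iC3b receptor, was 131 to 288 CPM in IM-like cells and 4.85 to 31.4 CPM in AM-like cells, higher in 5 of 5 libraries (3.99 ± 0.41, adjusted p = 0.000368). The lectin gene *Fcna* differed by 4.38 ± 0.79 (adjusted p = 0.00389), and its IM-like level was 152 CPM in sham and 22.9 to 71.5 CPM later. The terminal component gene *C6* was also higher (3.76 ± 0.66, adjusted p = 0.00347), at a mean of only 3.02 CPM in IM-like cells. *Cd59b*, one of the genes for the CD59 inhibitor of the membrane attack complex, differed by 2.11 ± 0.53 (adjusted p = 0.0169) at a mean of 1.62 CPM, and it did not pass without the day 28 library (adjusted p = 0.0998). The 3 genes lower in IM-like cells in 5 of 5 libraries were *C1ra* (-0.84 ± 0.17), *Itgb2* (-0.52 ± 0.13) and *C5ar2* (-0.43 ± 0.13), with adjusted p = 0.00701, 0.0164 and 0.0315. None of these 3 passed without the library block (adjusted p = 0.132, 0.241 and 0.702).

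In neutrophil-like against IM-like cells 15 genes were tested, of which 4 were higher and 7 lower, beside 28.0% and 31.2% of all genes. *C5ar2* was higher by 2.97 ± 0.39 (adjusted p = 0.000202), with 46.7 to 135 CPM in neutrophil-like and 6.08 to 31.0 CPM in IM-like cells, the same direction as seen for *C5ar1*. *Itgam* (1.06 ± 0.27, adjusted p = 0.0073), *Cr1l* (0.97 ± 0.20, adjusted p = 0.00247) and *Clu* (1.22 ± 0.38, adjusted p = 0.0196) were the others. *Clu* did not pass without the block or without the day 3 or day 14 library. The largest negative differences were those of *Fcna* (-4.69 ± 0.71), *C4b* (-2.51 ± 0.42), *Colec12* (-2.30 ± 0.51), *Lrp1* (-2.11 ± 0.26) and *C1qbp* (-1.75 ± 0.25), with adjusted p of 0.000156 to 0.0038. *Colec12* did not pass without the block (adjusted p = 0.0546). Reads of *C4b* can also come from its near-identical copy *C4a*, so its values are uncertain.

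Between fibroblast-like and AM-like cells the list divided by role. Of 20 genes tested, 12 were higher in fibroblast-like cells and 5 lower, beside 23.6% and 24.1% of all genes, with a median log2 fold change of 1.84 against -0.04. All 5 tested regulators and 5 of 6 initiators were higher, whereas 5 of 8 receptors and binding proteins were lower and 1 higher. *Serping1*, the C1 inhibitor gene, was 2347 to 3434 CPM in fibroblast-like cells and at most 2.02 CPM in AM-like cells (11.92 ± 0.63, adjusted p = 2.81e-07). *C7* of the membrane attack complex was 40.6 to 124 CPM against 6 UMIs in all AM-like cells (11.75 ± 0.33, adjusted p = 1.58e-08). The C1 protease gene *C1s1* was 575 to 1023 CPM (10.46 ± 0.56, adjusted p = 3.03e-07), and *C2* (6.67 ± 0.30, adjusted p = 1.14e-07) and *C4b* (6.61 ± 0.61, adjusted p = 1.18e-05) were higher too. The 5 lower genes were *Itgax* (-3.86 ± 0.49), *Itgb2* (-3.52 ± 0.40), *C5ar2* (-3.35 ± 0.49, 7 UMIs in fibroblast-like cells), *Lair1* (-3.11 ± 0.34) and *Cd93* (-2.78 ± 0.46), with adjusted p of 3.38e-05 to 0.000589. The samples were prepared as immune cells and held 30 to 69 fibroblast-like cells, so these values describe the few that were captured.

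**Figure D4:**
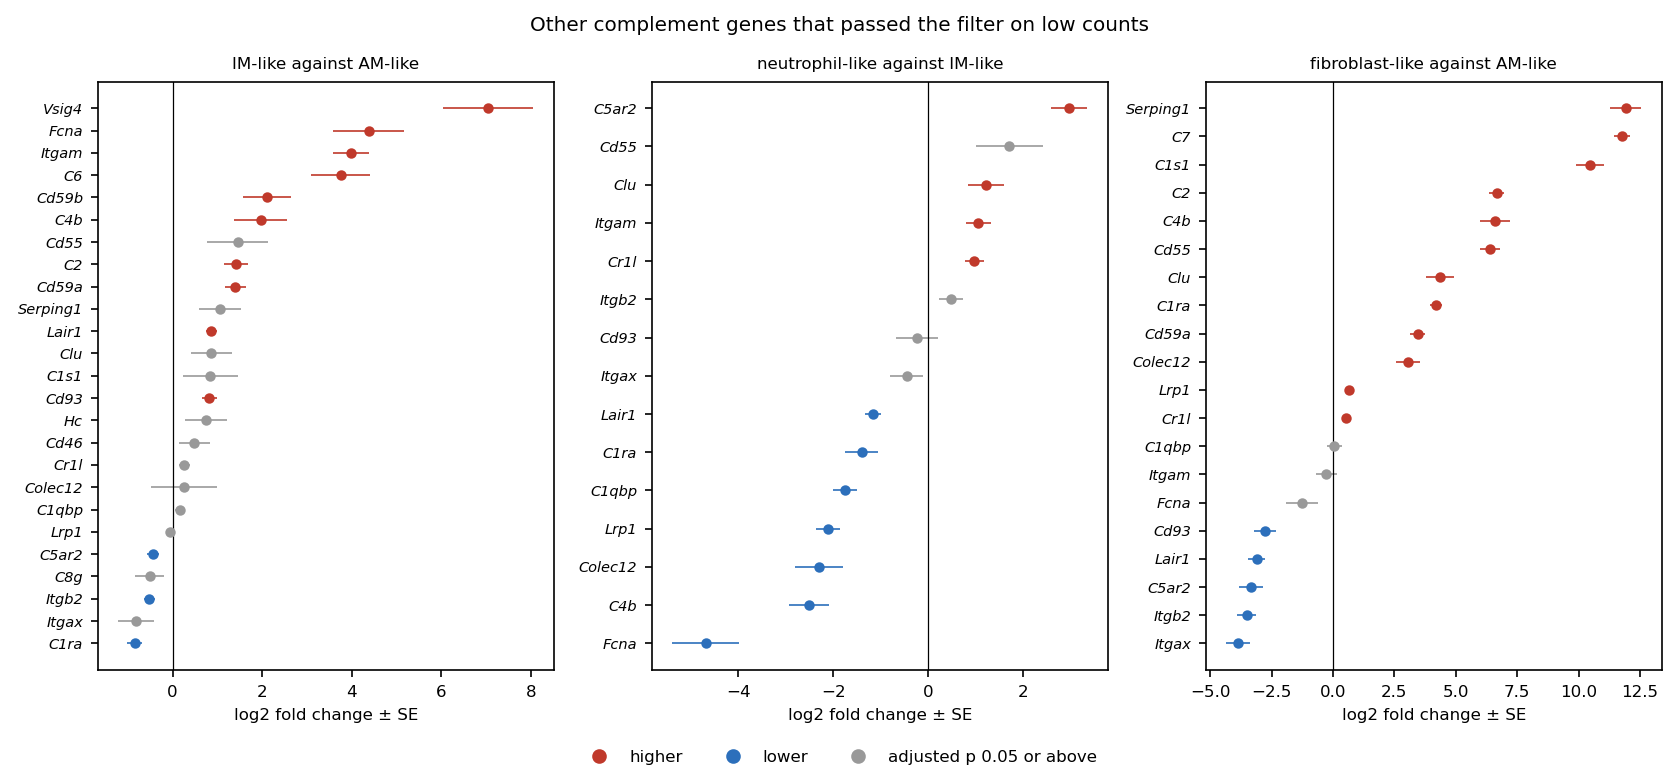
Log2 fold change ± approximate SE of the tested genes of the complement list in 3 comparisons between cell types (edgeR, 5 libraries). Red marks higher, blue lower and grey an adjusted p of at least 0.05. Initiators and regulators lie to the right in fibroblast-like against AM-like cells, up to 11.92 for *Serping1*.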

How the data were processed

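scRNA-seq was performed on 5 lung libraries with the 10x Single Cell 3′ v3.1 kit. According to the labels, the authors made the deposited UMI counts per gene and barcode with Cell Ranger 6.0.0 on mm10, with no normalization. The matrix headers name software version 3.1.0 instead, and this difference was not settled. The barcodes had been called as cells before deposit, and day 7 held exactly 10000 of them with none under 4624 UMIs, unlike the other libraries. The RFP feature is taken as the tdT reporter.

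Kept barcodes were scored for 18 marker lists (124 genes), and a cell was gated by its highest score, with a limit of 0.2 for macrophages and 0.4 for other types, a lead of 0.1 over the next list and 3 detected markers. A smaller lead gave a mixed type. These limits were raised after gated cells had been looked at, and 5.94% of typed cells lay within 0.05 of the required lead. The share was larger for IM-like cells, with 5 of 39 in sham and 185 of 593 at day 3. At days 7, 14 and 28 it was 214 of 1286, 192 of 825 and 148 of 619 IM-like cells. The members, gene lists and markers were chosen with earlier results of these data known. No doublet caller was applied in the reported values, since removing the 3822 barcodes marked by Scrublet was tried as an alternative. For shares, cells were thinned at random to 2000 UMIs, which left out 2473 shallower cells. Intervals are exact Poisson, or exact binomial for shares and ratios, at 95%. Day and sham were compared where a gene reached 50 CPM in at least 1 of the 2 libraries, and a 2-fold difference was counted without a test.

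Types were compared on UMI counts summed per type and library with edgeR 4.0.16 in R 4.3.3 (filterByExpr, TMM, quasi-likelihood test, library as a block, adjusted p under 0.05), a procedure that was also tested on simulated data. From the pathway list, up to 5 genes past this threshold were named in each direction, and for each member the 3 nearest genes among those with 100 CPM in at least 1 sum. Positions came from GENCODE and upstream sequences from RefSeq. The alternatives were doublets removed, a mitochondrial limit of 10%, a floor at the smallest barcode of day 7 (4624 UMIs), Leiden clusters named by the same markers (3000 variable genes, 30 components, 20 neighbours, resolution 1), a doubled lead, the mean of per-cell CPM, no thinning, DESeq2 1.42.0, RLE normalization, a fit without the library block, one with every low gene kept and 1 library left out. Leaving day 7 out of the member values, and keeping 1 fewer gene out of the clustering, were added after the data had been seen. A gene of the list is not reported here. The other tools were scanpy 1.11.5, leidenalg 0.10.2, python-igraph 0.11.9, matplotlib 3.10.9, pandas 2.3.3, scipy 1.17.1 and numpy 2.4.6 under Python 3.11.15.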

Additional observations from a re-analysis of the deposited data

Results flagged for a closer look

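Some members moved past 2-fold in opposite directions in 2 cell types on the same day against the shared sham library. Values are log2 ratios of day to sham, each from 1 library per arm, and none of the differences between types was tested. The C1q chains gave 6 such cases of a gene and a day, all against cDC2-like cells. In each of them several types were higher, and only the one with the highest CPM on that day is given. At day 14 *C1qa* was 6.99 in pDC-like and -1.60 in cDC2-like cells, *C1qb* was 6.59 and -1.38 in the same types, and *C1qc* was 6.66 in neutrophil-like and -1.37 in cDC2-like cells. At day 7 *C1qa* was 1.82 in classical monocyte-like and -1.12 in cDC2-like cells, *C1qb* was 8.92 in neutrophil-like and -1.11 in cDC2-like cells, and *C1qc* was 7.40 and -1.07 in these types. The pDC-like values rest on 1 sham UMI, and the neutrophil-like values on 4 sham UMIs of *C1qb* and 6 of *C1qc*. The cDC2-like values turned to higher in cells named by cluster, but not with 1 fewer gene kept out of the clustering.

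*Cfp* at day 3 was 1.08 in AM-like and -1.39 in IM-like cells. At day 7 it was 2.73 in B cell-like cells, against -1.64 in IM-like and -1.45 in pDC-like cells. *C5ar1* at day 7 was 1.31 in classical monocyte-like and -1.58 in neutrophil-like cells. The *Cfp* ratio of IM-like cells at day 3 and the *C5ar1* ratio of classical monocyte-like cells at day 7 changed sign in cells named by cluster.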

How the results depend on the processing

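No paired analysis was possible because each time point had 1 library, and the comparisons between types already carried the library as a block. Of the 128 ratios of a day to sham past 2-fold, 95 were shared when doublets were removed (99 in all), 126 with a mitochondrial limit of 10% (126), 116 with the floor of day 7 (124), 108 with the doubled lead (113), 115 with the mean of per-cell CPM (128), 98 with clusters (172), 98 with 1 fewer gene kept out of the clustering (167) and 88 without day 7 (88). The leading type was the same for all 8 members except with either clustering or without day 7, when *C3* and *Cfb* were led by fibroblast-like cells. Clusters reversed 10 ratios, and the cause was not tested. On the log2 scale these became 1.45 for *Cfp* in IM-like cells at day 3, 1.18 and 0.13 for *C5ar1* in IM-like cells at days 3 and 14, -0.12 for *C5ar1* in classical monocyte-like cells at day 7, and in cDC2-like cells 0.37, 0.29 and 0.54 for *C1qa*, *C1qb* and *C1qc* at day 7 and 1.97, 1.503 and 2.03 at day 14. With 1 fewer gene kept out of the clustering only 3 were reversed, *Cfp* and *C5ar1* in IM-like cells at day 3 (1.26 and 1.10) and *C5ar1* in classical monocyte-like cells at day 7 (-0.088). The share of AM-like cells with a *C1qb* UMI at day 28 was 16.5% thinned and 47.3% without thinning. Between IM-like and AM-like cells 13 list genes passed, against 8 without the library block and 9 to 15 with 1 library left out, lowest without day 7. Between neutrophil-like and IM-like cells 11 passed, against 18 without the filter on low counts and 11 to 16 with 1 library left out, and between fibroblast-like and AM-like cells 17, with 16 to 17. Of the levels of the members in their leading type under alternatives, 127 stayed within the counting interval of the main value and 108 did not. The doubled lead moved 23 of these levels out and kept 8. Of the ratios to sham that were followed in this way, 225 stayed within their interval, 96 moved out and 13 were reversed. Of the values of named list genes under alternatives, 256 kept their call and 12 lost it, and none turned. Ratios to sham rest on only 39 IM-like and 30 fibroblast-like cells in that library.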
